A study of Mus musculus with 9 samples.

Results

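Livers of the group titled AT3 were compared with untreated livers (CON) over all genes, to describe which transcripts remained away from the untreated level and which left it in AT3 only. The comparison rests on 6 of the 9 RNA sequencing libraries of the series, 3 a group, and the 3 libraries titled CPT show what AT3 livers share with the other injured group. All libraries came from liver of male BALB/c mice, and the CON livers had no treatment. The labels give AT3 and CPT the same treatment entry, acute liver injury caused by cisplatin, and the series' design text names an injection of DDP, a common short name of that drug. The series title names atractylenolide III, a sesquiterpene lactone from Atractylodes, together with signalling from IL-17 through ACT1 and TRAF6 to NF-kB, but no label spells out the letters AT3 or ties a compound to single libraries. Age, dose, route and the time from injection to sampling are stated in none of the sources used here. Whether the 3 libraries of a group are different animals is also not stated, so every p-value reflects the spread among these libraries, which may be technical. Of 57010 genes in the table, 13686 had enough counts to be tested.

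Cisplatin forms crosslinks in DNA, and lesions that stall transcription or replication activate p53, a transcription factor that induces genes of cell cycle arrest, apoptosis and repair. Hepatocytes answer IL-6, IL-1 and IL-17 with an acute phase response: they secrete large amounts of serum amyloid A, haptoglobin and fibrinogen, and they lower many transcripts of drug metabolism and of the male-biased programme that growth hormone maintains. IL-17 receptors recruit the adaptor ACT1, encoded by Traf3ip2, which engages the ubiquitin ligase TRAF6 and leads to NF-kB and C/EBP factors. The liver also holds sinusoidal endothelial cells, stellate cells, Kupffer cells and blood, whose transcripts enter every bulk library.

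Estimated counts summed to between 26709886 and 28297486 in AT3 libraries and between 21485021 and 26476936 in CON libraries. Transcripts of the mitochondrial genome took 9.79% to 11.4% of the counts in AT3 and 25.8% to 36.8% in CON, and albumin took 5.86% to 5.92% in AT3 and 2.62% to 3.96% in CON. Neither share overlapped between the groups (two-sided exact permutation test, p = 0.1, the smallest that 3 against 3 libraries allow). On the first principal component of log2 CPM, with 76.9% of the variance, AT3 libraries lay at 52.02 to 53.8 and CON libraries at -101 to -90.7. CPT_1 and CPT_2 lay at 35.5 and 39.9 on it, and CPT_3 at 52.4, within the AT3 range. On the second component, with 5.36%, AT3 libraries lay at -20.98 to -18.1 and the library CPT_3 at 7.41, between them and CPT_1 and CPT_2 (29.5 and 27.8). Without CPT_3, 84 of the 87 genes selected for description that were called between AT3 and CPT were still called in that direction (the others were Vsig4, Unc119 and Cd52). Many of them were selected through such a call, and without CPT_3 the genes called in AT3 only rose from 131 to 310, so this count does not show stability. Each class count below is given without the libraries that moved it by over 1.5 times. Of the 23 hepatocyte markers tested, 13 were higher, 7 lower and 3 not called in AT3. Alb itself measured 53115, 51939 and 56686 CPM in AT3_1 to AT3_3 against 38425, 41174 and 36073 CPM in CON_1 to CON_3 (log2 fold change 0.48 ± 0.14 (SE), edgeR adjusted p = 0.00556). CPM, the usual scale of counts relative to a library's total, include TMM scaling here, and a gene is called at an edgeR quasi-likelihood adjusted p < 0.05.

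In AT3 against CON, 8813 of the 13686 tested genes were called (64.4%), 4312 higher (31.5%) and 4501 lower (32.9%). The AT3 and CON libraries did not overlap for 9626 genes (70.3%), and 4428 of the called genes (32.4% of those tested) differed by at least 1 on the log2 scale, 1975 higher (14.4%) and 2453 lower (17.9%). These shares are the background against which each count below is to be read. The division into higher and lower depends on the scale: on log2(TPM + 1), to which no TMM scaling was applied, the median of all genes was 0.32. It was -0.04 on the TMM scale, and on log2(TPM + 1) limma called 7017 genes higher and 1698 lower. Gene lists whose printed median changes sign or moves by over 1.5 times with that scale are given with both medians. Counts of lists printed without a median can depend on it as well. Of the genes called in AT3, 7450 (54.4%) were also called in CPT against CON in the same direction, 3704 higher (27.1%) and 3746 lower (27.4%), and 6 (0.0438%) in the opposite one, 4 of them higher (0.0292%) and 2 lower (0.0146%) in AT3. Both comparisons share the CON libraries; CPT against CON called 8326 genes (60.8%), and AT3 against CPT called 641 (4.68%), 337 higher (2.46%) and 304 lower (2.22%). In bulk liver, fewer cells of a type and less RNA per cell cannot be told apart.

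Among the transcripts farthest above untreated liver were those of serum amyloids, metallothioneins and lipocalin 2. Saa2, a serum amyloid A secreted by hepatocytes, measured 6059.8, 7118 and 7634 CPM in AT3_1 to AT3_3 against 2.14, 1.69 and 1.91 CPM in CON_1 to CON_3. All 3 AT3 libraries exceeded every CON library by more than 3 orders of magnitude, and the log2 fold change was 11.83 ± 0.24 (SE) with adjusted p = 1.55e-14. Saa1 measured 6338, 7404 and 7416 against 10.2, 8.40 and 10.4 CPM (log2 fold change 9.51 ± 0.21 (SE)); reads may be misassigned between these near-identical copies. Mt2, a metallothionein that binds zinc, copper and platinum, measured 2435, 2593 and 2719.8 against 1.12, 1.65 and 0.676 CPM (log2 fold change 11.07 ± 0.22 (SE)). Mt1 measured 4467, 4339.9 and 4955 against 7.98, 15.2 and 6.87 CPM (log2 fold change 8.82 ± 0.27 (SE)). Lcn2, a siderophore-binding protein induced by IL-17 and other cytokines, measured 2999.5, 3529.6 and 3692 against 6.24, 3.45 and 4.90 CPM (log2 fold change 9.47 ± 0.21 (SE), adjusted p = 3.08e-14). None of these 5 genes was called between AT3 and CPT, where their log2 fold changes lay between -0.20 and 0.09. Psrc1, a p53-induced microtubule-associated gene, measured 11.6, 10.8 and 8.74 CPM in AT3 and had a count in CON_2 alone, so its log2 fold change was 8.94 with all libraries and 11.11 without CON_2. Cela2a, a pancreatic elastase gene, and Sec14l5 had 0 counts in all CON libraries, and set against 3 counts over that group they were at least 129-fold and at least 57.9-fold higher in AT3.

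**Figure D1:**
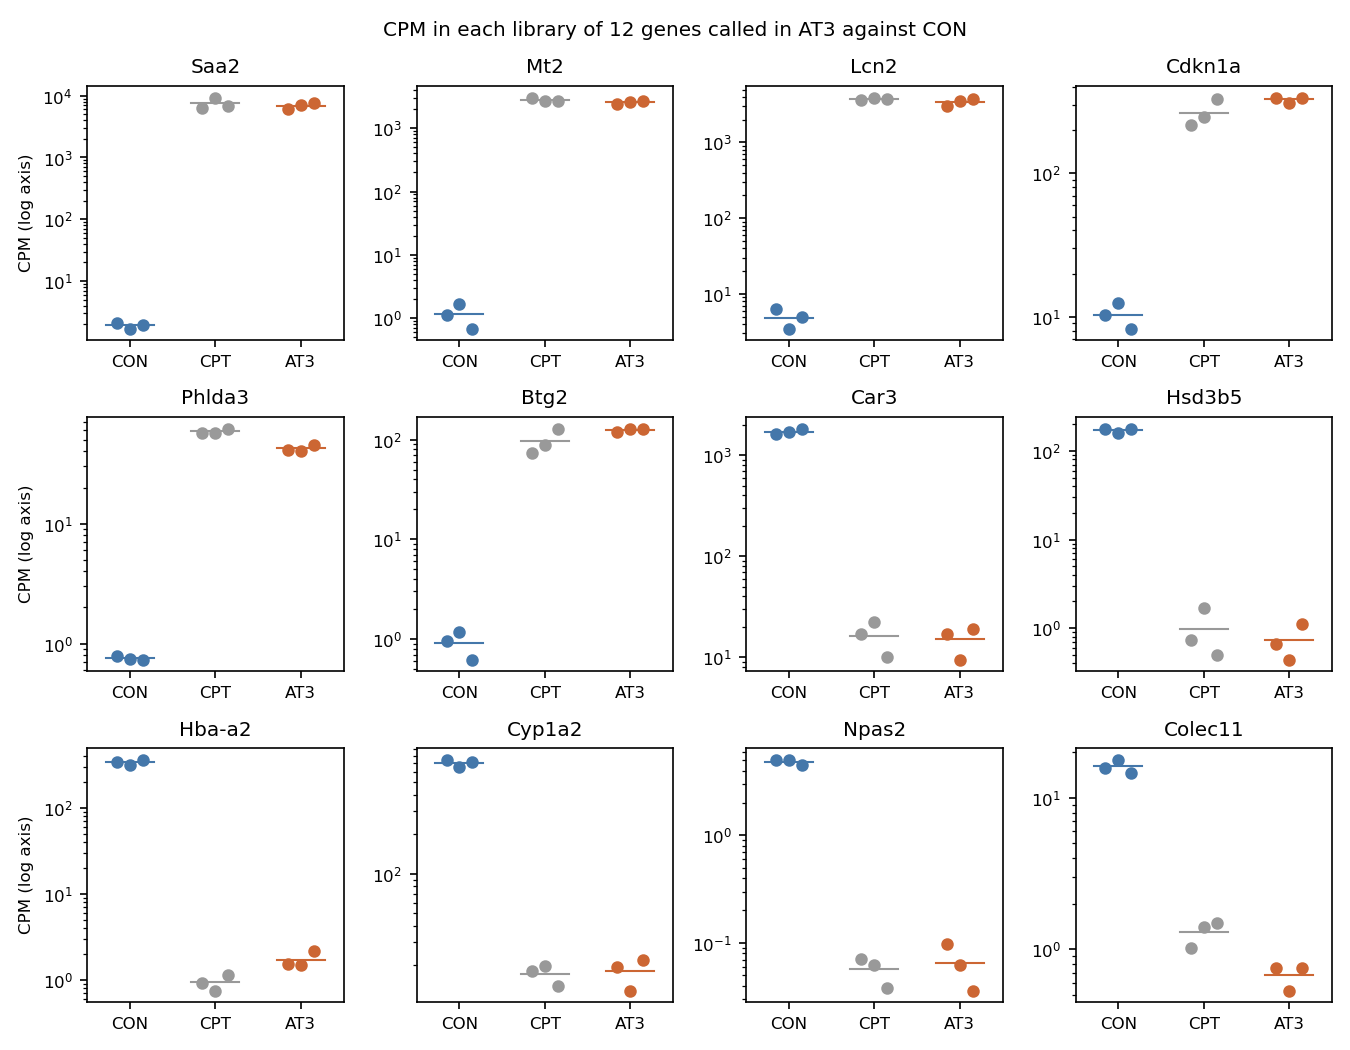
CPM (log axis) of 12 genes called in AT3 against CON, 1 panel a gene and 1 point a library (CON blue, CPT grey, AT3 orange), with a line at each group's mean. In each panel the 3 AT3 points lie apart from the 3 CON points, and Saa2 runs from about 1.91 in CON to 6937 in AT3.

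Among the largest falls were haemoglobin transcripts, enzymes of the male liver and a very long gene. Hba-a2, an alpha globin gene of red cells, measured 1.54, 1.47 and 2.15 CPM in AT3 against 339, 312 and 362 CPM in CON (log2 fold change -7.62 ± 0.16 (SE)); its reads can be shared with Hba-a1 (-7.35). Hsd3b5, a steroid dehydrogenase of male mouse liver, measured 0.656, 0.439 and 1.11 against 178, 160.04 and 176 CPM (log2 fold change -7.88 ± 0.27 (SE), adjusted p = 5.01e-12). Car3, a carbonic anhydrase abundant in hepatocytes, fell from 1711 ± 111 to 15.2 ± 5.14 CPM (mean ± SD, n = 3 libraries a group). Hamp2, a hepcidin paralogue, measured 1.18, 0.439 and 1.83 CPM in AT3 against 109, 148 and 87.6 CPM in CON (log2 fold change -6.67 ± 0.29 (SE)). It was called higher in AT3 than in CPT, where it measured 0.106, 0.187 and 0.0769 CPM (log2 fold change 3.10 ± 0.62 (SE), adjusted p = 0.0122). Those CPT values are only a few counts, since 3 counts are 0.105 to 0.140 CPM at these depths, so the size of that difference is uncertain. Immp2l, a subunit of a mitochondrial inner membrane peptidase encoded by a gene of great length, measured 0.394, 0.251 and 0.860 against 39.8, 34.3 and 38.8 CPM (log2 fold change -6.25 ± 0.22 (SE)). In the GENCODE M21 annotation of GRCm38, Saa2 (ENSMUSG00000057465) lies on chromosome 7 from 46751790 to 46754313, Mt2 (ENSMUSG00000031762) on chromosome 8 from 94172664 to 94173568 and Lcn2 (ENSMUSG00000026822) on chromosome 2 from 32384633 to 32388252. Hsd3b5 (ENSMUSG00000038092) lies on chromosome 3 from 98618634 to 98630252, Car3 (ENSMUSG00000027559) on chromosome 3 from 14863512 to 14872523 and Immp2l (ENSMUSG00000056899) on chromosome 12 from 41024090 to 41955588; all 6 are protein-coding.

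Acute phase transcripts remained high in AT3 livers. Of the 32 acute phase genes tested, 31 were higher and 1 lower, with a median log2 fold change of 3.15 beside -0.04 over all genes. The one that fell was Hamp, the iron hormone hepcidin, which measured 506, 567 and 713 CPM in AT3 against 1158, 1323 and 1209 CPM in CON (log2 fold change -1.05 ± 0.16 (SE)) and was also lower than in CPT (adjusted p = 0.0323). The fall from CON was not called on log2(TPM + 1) (-0.32, adjusted p = 0.194). Of the 14 genes listed as negative acute phase proteins, 9 were higher, 4 lower and 1 not called. Serpina6, the corticosteroid-binding globulin, fell from 319.6, 329 and 282 CPM in CON_1 to CON_3 to 16.7, 15.6 and 17.9 CPM in AT3_1 to AT3_3 (log2 fold change -4.21 ± 0.16 (SE)). Serpina7, the thyroxine-binding globulin, rose from 19.6 ± 3.12 to 275 ± 34.2 CPM, and Ahsg, the fetuin A gene, from 3099 ± 464 to 16651 ± 435 CPM, so the members of this list did not move together. Of the 42 complement and coagulation genes tested, 23 were higher, 10 lower and 9 not called, against 33 higher and 5 lower on log2(TPM + 1). Fga and Fgg encode fibrinogen chains: Fga measured 5878, 7023 and 7339 against 398, 448 and 316 CPM (log2 fold change 4.12 ± 0.19 (SE)). Fgg measured 5201, 6039 and 6073 against 497, 512 and 443 CPM (log2 fold change 3.58 ± 0.15 (SE)). Pros1, the anticoagulant protein S, rose by 2.11 on the log2 scale.

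The stretches before the start sites of 4 of these cytokine-responsive genes are shown because Saa1, Saa2 and Lcn2 were not called between AT3 and CPT while Cxcl1 was called lower in AT3. Each is the 200 bases upstream of the RefSeq start on GRCm38.p6, read 5′ to 3′ along the gene's strand. Capitals mark the C/EBP core (TTGCNNAA) or the NF-kB consensus, a ten-base motif known by its name, searched on both strands. The C/EBP core is in 7.48% and the NF-kB consensus in 6.07% of the 32817 RefSeq promoter stretches of that length. The Saa1 stretch is chr7:46742981-46743180 on the minus strand, Saa2 chr7:46751633-46751832 on the plus strand, Lcn2 chr2:32387740-32387939 on the minus strand and Cxcl1 chr5:90891045-90891244 on the plus strand.
Saa1: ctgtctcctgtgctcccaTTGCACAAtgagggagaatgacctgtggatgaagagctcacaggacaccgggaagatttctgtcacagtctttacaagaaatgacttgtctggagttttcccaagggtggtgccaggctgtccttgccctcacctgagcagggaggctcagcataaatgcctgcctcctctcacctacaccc
Saa2: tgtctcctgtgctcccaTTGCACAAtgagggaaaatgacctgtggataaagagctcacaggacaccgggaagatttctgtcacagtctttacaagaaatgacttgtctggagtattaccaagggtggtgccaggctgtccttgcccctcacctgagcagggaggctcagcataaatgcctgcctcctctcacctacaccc
Lcn2: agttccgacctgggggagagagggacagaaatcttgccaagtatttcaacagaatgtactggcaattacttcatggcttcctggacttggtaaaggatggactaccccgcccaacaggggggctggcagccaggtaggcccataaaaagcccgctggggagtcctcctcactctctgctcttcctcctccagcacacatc
Cxcl1: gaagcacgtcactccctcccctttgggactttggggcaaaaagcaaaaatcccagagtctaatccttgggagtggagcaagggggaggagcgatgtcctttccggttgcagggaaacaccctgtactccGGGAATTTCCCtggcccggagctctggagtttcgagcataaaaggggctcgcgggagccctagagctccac
The Saa1 and Saa2 stretches were identical in 195 of 201 alignment columns (97.0%), and each held the C/EBP core once. Cxcl1 held the NF-kB consensus on both strands at overlapping positions, and the Lcn2 stretch held neither motif. The RefSeq starts used here differ from some GENCODE starts given above: the Lcn2 stretch lies within the GENCODE span of Lcn2, and the Saa2 stretch runs past the first GENCODE start of Saa2. The matches therefore describe the letters of the stretch before the RefSeq start only.

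By edgeR, transcripts of the IL-17 chain were called about as often as genes at large, in both directions. Of its 25 tested genes, 7 were higher, 8 lower and 10 not called, with a median log2 fold change of -0.21, or 0.37 on log2(TPM + 1). On that scale limma called 13 of them higher and 0 lower, so the falls depend on the scale. Il17ra, the receptor subunit shared by the family, measured 13.4, 13.8 and 17.1 CPM in AT3 against 7.31, 5.77 and 4.28 CPM in CON (log2 fold change 1.35 ± 0.18 (SE), adjusted p = 7.06e-06). Il17rb, the receptor of IL-17B and IL-25, measured 8.83, 8.18 and 7.09 against 2.25, 2.79 and 1.86 CPM (log2 fold change 1.78 ± 0.18 (SE)). Il17rc, the partner of Il17ra, had a log2 fold change of 0.41 ± 0.14 (SE) and adjusted p = 0.0155, which rose above 0.05 without CON_3 (0.0519), AT3_1 (0.0597) or AT3_3 (0.0509). Traf3ip2, which encodes ACT1, measured 2.20, 2.26 and 1.72 against 0.899, 1.69 and 1.29 CPM and was not called (adjusted p = 0.0643; 0.0283 without CON_2, 0.0492 without CPT_1 and 0.0429 without CPT_2). By edgeR it was called higher with the 6 AT3 and CON libraries only (adjusted p = 0.0492) and without a filter on low counts (adjusted p = 0.0284). Traf6 measured 4.43, 5.74 and 5.77 against 6.46, 5.57 and 8.50 CPM, not called either (adjusted p = 0.087; 0.0305 without CON_2, with a log2 fold change of -0.49). Nfkb1 and Rela, which encode NF-kB subunits, were not called by edgeR but called higher by limma on log2(TPM + 1). Nfkb1 had a log2 fold change of 0.25 (adjusted p = 0.133), or 0.60 on that scale (adjusted p = 0.00075). Rela had -0.03 (adjusted p = 0.783), or 0.55 (adjusted p = 0.0048). Nfkbia, the NF-kB inhibitor that NF-kB itself induces, was lower in AT3, at 16.9, 16.95 and 17.1 against 26.5, 31.6 and 29.3 CPM (log2 fold change -0.78 ± 0.10 (SE)), and lower than in CPT too (adjusted p = 0.0331). Its fall from CON was not called on log2(TPM + 1) (-0.07, adjusted p = 0.711). Cebpd, a C/EBP factor, rose by 1.05 on the log2 scale.

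Of 22 fixed IL-17 target genes, 11 were tested, of which 10 were higher and 1 not called; Il6, Tnf, Csf2, Csf3, Cxcl2, Cxcl5 and Ccl20 were among those that did not pass the filter. A gene that passed only through the group where it is high had to differ, so counts over lists with many untested members support nothing. Cxcl1, a neutrophil chemokine, measured 45.6, 78.8 and 73.1 CPM in AT3_1 to AT3_3 against 10.1, 10.01 and 4.62 CPM in CON, with 206, 206 and 143 CPM in CPT_1 to CPT_3. The 3 groups did not overlap, and AT3 lay between the others: its log2 fold change was 2.98 ± 0.26 (SE) against CON and -1.49 ± 0.23 (SE) against CPT, with adjusted p = 7.13e-08 and 0.00207. Steap4, a ferrireductase induced by IL-17, lay between them as well, at 182, 237 and 236 CPM in AT3, 10.4, 9.11 and 12.2 in CON and 293, 381 and 359 in CPT (adjusted p = 0.0116 between AT3 and CPT). Of the 24 NF-kB feedback and target genes tested, 10 were higher, 5 lower and 9 not called, against 14 higher and 0 lower on log2(TPM + 1). Junb, an AP-1 subunit, measured 45.7, 46.4 and 47.5 against 4.78, 5.69 and 6.59 CPM (log2 fold change 3.03 ± 0.11 (SE)). Nfkbiz, an atypical IkB protein whose transcript IL-17 stabilizes, measured 13.6, 12.8 and 11.4 against 3.88, 3.18 and 4.50 CPM (log2 fold change 1.73 ± 0.15 (SE)). Of the 12 endotoxin sensing genes tested, 8 were higher, 3 lower and 1 not called. Lbp, the plasma protein that hands lipopolysaccharide to its receptors, rose by 2.86, Cd14 by 3.16 and the adaptor Ticam1 by 1.33 on the log2 scale.

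The p53 programme also remained. Of the 39 p53 target genes tested, 31 were higher, 2 lower and 6 not called, with a median log2 fold change of 1.54. Cdkn1a, the p21 inhibitor of the cell cycle, measured 339, 311 and 336 CPM in AT3 against 10.3, 12.4 and 8.22 CPM in CON (log2 fold change 4.99 ± 0.18 (SE), adjusted p = 5.94e-12). Phlda3, an inhibitor of AKT signalling, measured 40.9, 40.6 and 45.6 against 0.787, 0.746 and 0.732 CPM, and was lower than the 56.8, 57.5 and 62.1 CPM of CPT (adjusted p = 0.00754). Trp53inp1, which promotes p53-dependent death and autophagy, went the other way, at 254, 261 and 240.1 CPM in AT3, 178, 174 and 182 in CPT and 17.7, 20.4 and 14.4 in CON (adjusted p = 0.0159 between AT3 and CPT). These 2 members thus lay on opposite sides of their CPT level. Ccng1, the cyclin G1 gene, rose by 3.72 ± 0.11 (SE) on the log2 scale, and Btg2, an antiproliferative p53 target, from 0.917 ± 0.281 to 124 ± 5.11 CPM.

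By edgeR, genes of cell death, repair and the cell cycle were called in both directions. Of the 33 apoptosis and cell death genes tested, 19 were higher, 5 lower and 9 not called, against 22 higher and 2 lower on log2(TPM + 1). Those that rose included Tnfrsf10b and Fas, which encode death receptors, by 3.16 ± 0.17 and 1.86 ± 0.13 (SE) on the log2 scale, and the pro-apoptotic Bad by 1.91 ± 0.15 (SE). Of the 34 DNA repair genes, 12 were higher, 8 lower and 14 not called, against 18 higher and 1 lower on log2(TPM + 1). Repair genes that rose included Polk, a translesion polymerase (9.09, 9.46 and 8.24 against 2.25, 1.84 and 1.46 CPM). The lesion recognition gene Ddb1 (109, 105.1 and 108 against 40.2, 39.4 and 40.1 CPM) and the excision nuclease gene Ercc5 (13.8, 16.2 and 11.2 against 3.60, 5.81 and 4.56 CPM) rose too. Of the 21 tested cell cycle genes, 5 were higher, 7 lower and 9 not called, with a median of -0.02, or 0.20 on log2(TPM + 1). Pcna, the replication and repair clamp, rose from 5.05 ± 1.26 to 14.4 ± 0.821 CPM, while the G1 genes Ccnd1 and Cdk6 fell, with log2 fold changes of -1.84 and -1.31. Cdk6 was not called on log2(TPM + 1) (-0.19, adjusted p = 0.0973). None of these 9 genes was called between AT3 and CPT.

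Of the 26 endoplasmic reticulum (ER) chaperone and unfolded protein response genes, 22 were higher, 2 lower and 2 not called, with a median log2 fold change of 1.05 (1.70 on log2(TPM + 1)). Hspa5, the ER chaperone BiP, measured 346, 384 and 371 against 78.3, 85.8 and 83.8 CPM (log2 fold change 2.15 ± 0.10 (SE)), and Selenos, of the ER degradation machinery, rose by 3.04. Of the 22 tested ATF4 genes of the integrated stress response, 11 were higher, 3 lower and 8 not called. Cth, the cystathionine lyase of cysteine synthesis, rose from 95.9 ± 6.52 to 525 ± 29.97 CPM, and Sesn2, also a p53 target, from 5.51 ± 0.108 to 19.6 ± 1.35 CPM. The mitochondrial serine enzyme gene Shmt2 fell from 156 ± 8.14 to 69.2 ± 6.51 CPM. Of the 20 heat shock chaperones, 6 were higher, 5 lower and 9 not called (median -0.16, or 0.50 on log2(TPM + 1)), with Hspb8 higher and Hspb1 and Hspa1b lower (log2 fold changes of 1.25, -2.38 and -2.07). Of the 19 tested immediate early genes, 15 were higher, 3 lower and 1 not called. Egr1, a transcription factor of the early growth response, measured 53.8, 65.9 and 69.6 CPM in AT3, 34.6, 32.97 and 50.5 in CPT and 1.80, 0.864 and 1.97 in CON, and was called above both other groups. Of the 25 glucocorticoid receptor targets, 17 were higher, 7 lower and 1 not called; Mt1, Mt2 and Lcn2 are also on the acute phase list. Fkbp5, a co-chaperone of that receptor, measured 154, 156 and 158 CPM in AT3, 109.5, 95.7 and 112 in CPT and 10.004, 8.95 and 7.82 in CON. The 3 groups did not overlap, with log2 fold changes of 4.13 ± 0.12 (SE) against CON and 0.57 ± 0.10 (SE) against CPT.

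**Figure D2:**
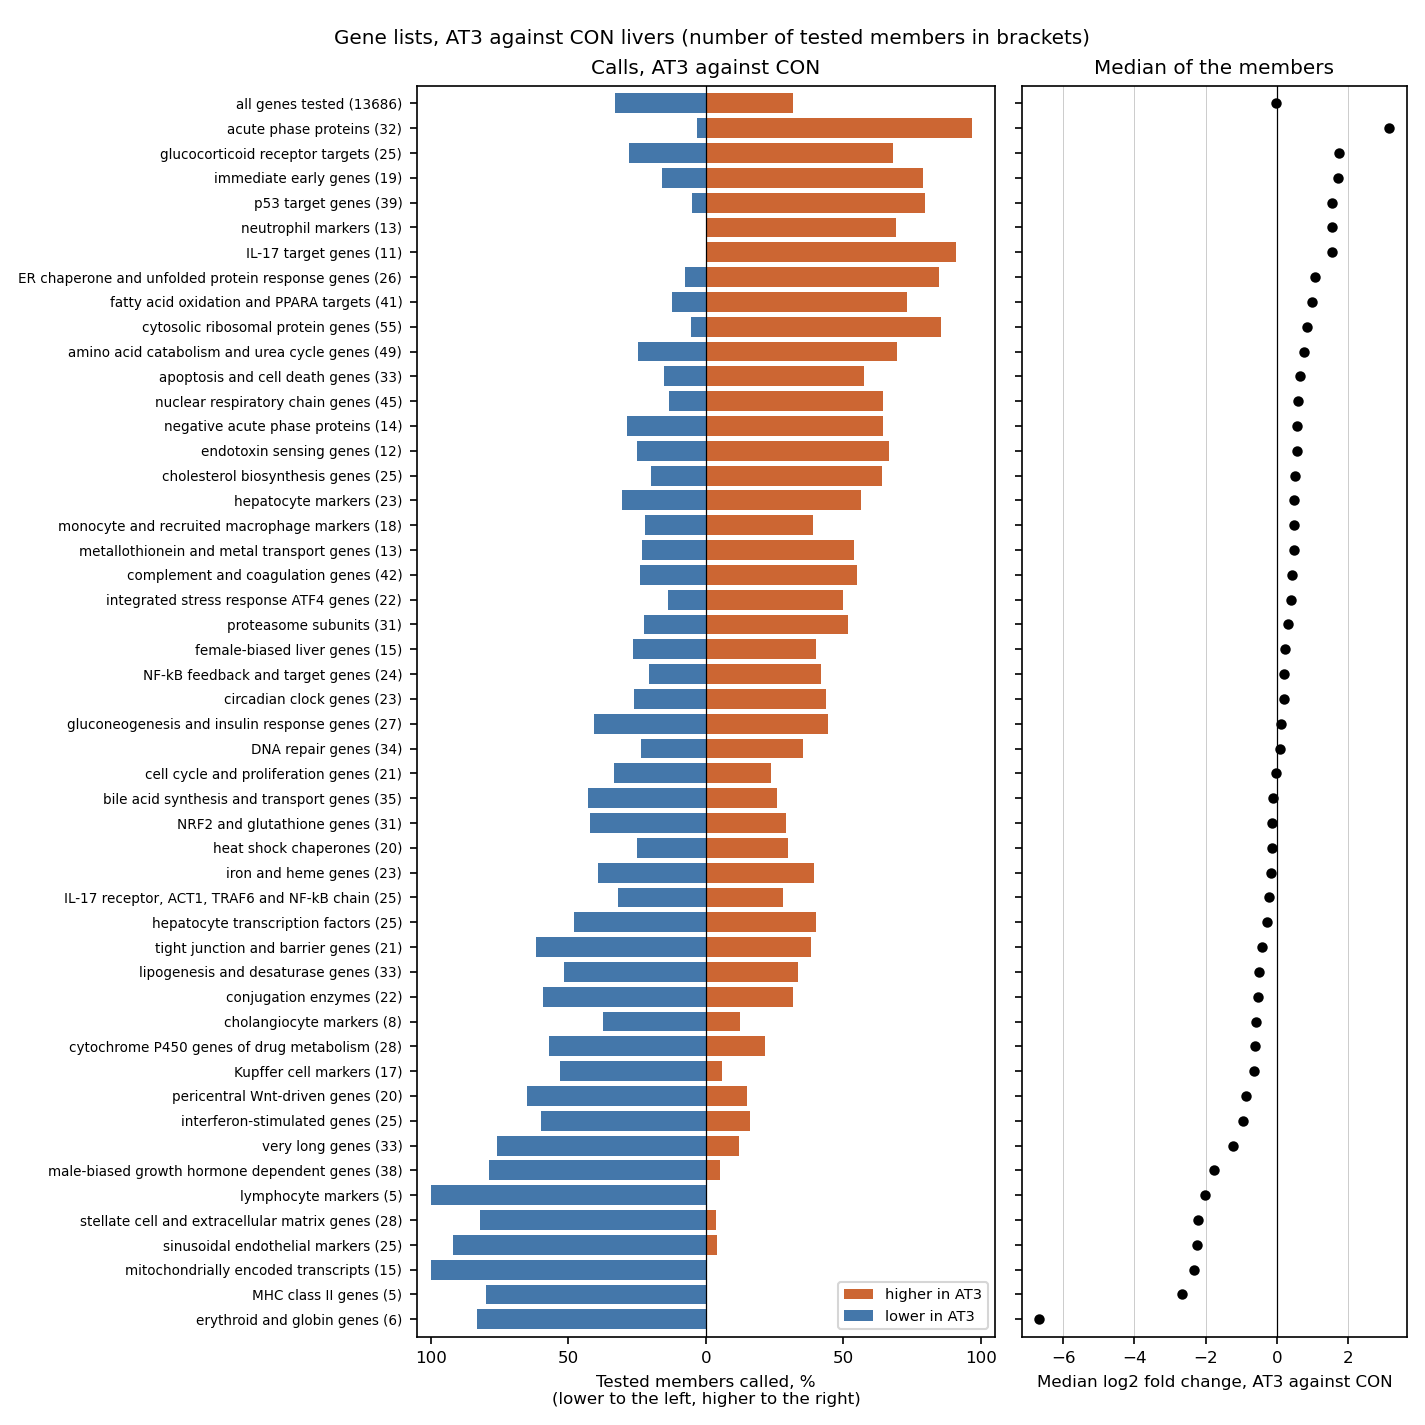
For each of 49 gene lists and for all genes tested, the left panel shows the share of tested members called higher (orange, to the right) and lower (blue, to the left) in AT3 against CON in percent, and the right panel the median log2 fold change of the members. Acute phase proteins lie at the upper end with a median of 3.15, globins at the lower end with -6.67, and all genes tested near 0 with -0.04.

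Markers of the sinusoidal wall and of stellate cells stayed low. Of the 25 sinusoidal endothelial markers, 23 were lower, 1 higher and 1 not called, with a median log2 fold change of -2.25 (-0.61 on log2(TPM + 1)). Dnase1l3, a nuclease secreted by these cells, measured 0.820, 1.28 and 1.15 CPM in AT3 against 20.5, 19.3 and 19.8 CPM in CON, and 0.601, 0.560 and 0.654 in CPT (adjusted p = 0.0421 between AT3 and CPT). Ehd3, an endocytic recycling gene, measured 3.87, 5.89 and 5.01 against 32.4, 34.8 and 33.6 CPM, and the Fc receptor gene Fcgr2b 2.99, 4.64 and 4.23 against 29.3, 26.8 and 30.2 CPM. Of the 28 tested stellate cell and matrix genes, 23 were lower, 1 higher and 4 not called, with a median of -2.23 (-0.77 on log2(TPM + 1)). Colec11, a collectin made by stellate cells, measured 0.755, 0.533 and 0.752 against 15.7, 17.9 and 14.7 CPM (log2 fold change -4.57 ± 0.19 (SE)) and was lower than in CPT, at 1.02, 1.40 and 1.499 CPM (adjusted p = 0.0305). Ecm1, a matrix protein that keeps latent TGF-beta inactive, measured 20.7, 23.5 and 21.8 CPM in AT3, 33.99, 28.1 and 31.2 in CPT and 191, 215 and 179.6 in CON, and the collagen gene Col14a1 fell, with a log2 fold change of -4.17. Eln, the elastin gene, which is not on that list, measured 0.131, 0.0940 and 0.0716 CPM in AT3 against 6.18, 6.01 and 5.24 CPM in CON (log2 fold change -5.80 ± 0.37 (SE)). Of 13 fixed cholangiocyte markers, 8 were tested, of which 3 were lower, 1 higher and 4 not called (median -0.58, or 0.12 on log2(TPM + 1)).

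Immune cell markers moved in different directions. Of the 17 Kupffer cell markers, 9 were lower, 1 higher and 7 not called, with a median of -0.65, or 0.02 on log2(TPM + 1). Fcna, a ficolin, measured 3.94, 3.98 and 3.69 CPM in AT3 against 13.8, 18.999 and 12.9 CPM in CON (log2 fold change -1.99 ± 0.16 (SE)). Clec4f, the lectin that defines these cells in mice, measured 7.74, 8.30 and 9.13 against 17.1, 14.96 and 18.6 CPM (log2 fold change -1.01 ± 0.12 (SE)), but on log2(TPM + 1) it did not differ detectably (-0.01, adjusted p = 0.952). Of 20 fixed markers of monocytes and recruited macrophages, 18 were tested, of which 7 were higher, 4 lower and 7 not called. Mpeg1, a pore-forming protein of phagocytes, rose from 17.5 ± 1.60 to 54.2 ± 2.56 CPM, while the fractalkine receptor gene Cx3cr1 fell from 5.55 ± 1.58 to 0.315 ± 0.137 CPM. Of 21 fixed neutrophil markers, 13 were tested, of which 9 were higher and 4 not called. Retnlg, a neutrophil resistin-like gene, measured 2.33, 1.94 and 2.47 against 0.112, 0.157 and 0.0563 CPM, and Lcn2 is on this list too. The defining genes Ly6g, Camp, Ngp, Mpo and Elane did not pass the filter, with at most 7 counts in any library. Of 22 fixed lymphocyte markers, 5 were tested and all 5 were lower, with Igkc, the immunoglobulin kappa constant region, at 3.71, 3.35 and 4.48 CPM in AT3, 7.21, 6.13 and 5.15 in CPT and 24.3, 22.3 and 24.9 in CON. Of 9 MHC class II genes, 5 were tested and 4 were lower. Cd74, the invariant chain, measured 4.79, 5.30 and 5.77 CPM in AT3, 7.49, 8.50 and 8.96 in CPT and 36.03, 33.99 and 38.3 in CON, lower in AT3 than in each of the other groups (adjusted p = 2.06e-11 against CON and 0.00565 against CPT). Of the 25 interferon-stimulated genes, 15 were lower, 4 higher and 6 not called (median -0.95). On log2(TPM + 1) 6 of them were lower and 7 higher, with a median of -0.08. Ifit1, an interferon effector gene, measured 0.656, 0.909 and 0.788 against 4.83, 5.42 and 4.84 CPM, and Usp18, an interferon-induced ISG15 protease, was higher at 22.9, 23.3 and 20.99 against 1.91, 2.79 and 2.31 CPM.

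Globin transcripts were far below untreated liver, and genes of iron and metal handling were called in both directions. Of 12 fixed erythroid and globin genes, 6 were tested, of which 5 were lower and 1 not called. Haemoglobin transcripts took 0.000633% ± 5.36e-05 of the counts in AT3 against 0.0641% ± 0.00497 in CON (SD, n = 3; two-sided exact permutation test, p = 0.1, the smallest possible). Globin transcripts thus moved with the comparison, and the part of blood content in other results was not tested. Of the 23 tested iron and heme genes, 9 were higher, 9 lower and 5 not called (median -0.18, or 0.36 on log2(TPM + 1)). Tfrc, the transferrin receptor, measured 31.8, 30.4 and 28.98 CPM in AT3, 21.8, 22.1 and 21.95 in CPT and 10.5, 11.3 and 9.57 in CON, with no overlap between any of them, and Hfe, the haemochromatosis gene, 36.5, 32.3 and 35.7 against 13.8, 12.3 and 13.6 CPM. Of the 13 tested metallothionein and metal transport genes, 7 were higher, 3 lower and 3 not called. Slc39a14, a zinc and iron importer of hepatocytes, measured 318, 327 and 302 against 83.3, 81.5 and 84.9 CPM (log2 fold change 1.92 ± 0.09 (SE)).

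Mitochondrially encoded transcripts and nuclear genes of the respiratory chain moved apart. All 15 tested transcripts of the mitochondrial genome were lower in AT3, with a median log2 fold change of -2.33. The ATP synthase subunit transcript mt-Atp6 measured 1485, 1599 and 1389 CPM in AT3, 3507, 2747 and 2315 in CPT and 11002, 9317 and 14863 in CON. The complex I transcript mt-Nd3 measured 420.2, 392 and 379 CPM in AT3, 1159.9, 873 and 612 in CPT and 3901, 3125 and 4764 in CON. Both were lower in AT3 than in CPT (adjusted p = 0.00693 and 0.004). Of the 45 nuclear respiratory chain genes, 29 were higher, 6 lower and 10 not called (median 0.60, or 1.11 on log2(TPM + 1)). The cytochrome c oxidase subunit gene Cox5a measured 163, 152 and 144 against 23.8, 31.1 and 20.2 CPM and Cox7a2 299.8, 271 and 286 against 56.03, 70.3 and 52.9 CPM. Of the 55 cytosolic ribosomal protein genes, 47 were higher, 3 lower and 5 not called (median 0.84, or 1.43 on log2(TPM + 1)). Rpl4 rose by 2.58, Rps19 by 1.77 and Rps27a by 1.58 on the log2 scale, with reads that processed pseudogenes may share. Of the 31 proteasome subunits, 16 were higher, 7 lower and 8 not called, against 25 higher and 1 lower on log2(TPM + 1). The regulatory subunit gene Psmd13 measured 48.6, 47.6 and 47.9 against 5.17, 5.22 and 3.83 CPM.

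Male-biased genes were mostly below the untreated level, and genes of drug metabolism were called in both directions. Of the 28 tested genes of the drug-metabolizing cytochromes P450, 16 were lower, 6 higher and 6 not called, with a median of -0.62. On log2(TPM + 1) 12 were lower and 9 higher, with a median of 0.03. Cyp1a2, which oxidizes caffeine and aromatic amines, measured 19.4, 12.7 and 21.8 CPM in AT3 against 745, 649 and 717 CPM in CON (log2 fold change -5.30 ± 0.19 (SE)). Cyp3a11, the main hepatic enzyme of its subfamily, measured 161, 174 and 196 CPM in AT3, 343, 503 and 359 in CPT and 1825, 2376 and 1729 in CON, lower in AT3 than in either (adjusted p = 8.36e-04 against CPT). Por, the electron donor of these enzymes, was higher, at 445, 357 and 407 against 56.7, 53.9 and 44.1 CPM. Of the 22 tested conjugation enzymes, 13 were lower, 7 higher and 2 not called (median -0.53), against 6 lower and 8 higher on log2(TPM + 1) (median 0.13). Sult1a1, a phenol sulfotransferase, measured 859.9, 852 and 858 CPM in AT3, 524, 595 and 665 in CPT and 80.4, 93.9 and 69.6 in CON, and lay farther from CON in AT3 than in CPT (adjusted p = 0.0203 between them). Of the 31 tested NRF2 and glutathione genes, 13 were lower, 9 higher and 9 not called (median -0.15, or 0.54 on log2(TPM + 1)). The glutathione transferase genes Gstm3 and Gstm1 were lower, and so was Gclc, the catalytic subunit of glutathione synthesis, with log2 fold changes of -4.56, -2.49 and -1.83. Of the 38 growth hormone dependent genes with male bias, 30 were lower, 2 higher and 6 not called (median -1.76), against 25 lower and 6 higher on log2(TPM + 1) (median -0.72). Mup21, a major urinary protein gene whose family shares reads, measured 6.92, 6.24 and 6.16 against 131, 125 and 137 CPM, and Keg1, a glycine acyltransferase-like gene, 8.66, 9.15 and 10.8 against 86.2, 81.5 and 82.4 CPM. Of 24 fixed female-biased genes, 15 were tested, of which 6 were higher, 4 lower and 5 not called. The flavin monooxygenase gene Fmo2 rose from 9.48 ± 0.429 to 78.4 ± 1.33 CPM and the steroid hydroxylase gene Cyp17a1 from 0.646 ± 0.122 to 10.3 ± 0.544 CPM.

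Lipid genes were called in both directions. Of the 33 tested lipogenesis and desaturase genes, 17 were lower, 11 higher and 5 not called (median -0.50, or 0.07 on log2(TPM + 1)). Of the 41 tested PPARA targets and fatty acid oxidation genes, 30 were higher, 5 lower and 6 uncalled (median 0.99). Elovl3, a fatty acid elongase, measured 37.8, 32.1 and 40.4 CPM in AT3, 11.1, 7.01 and 11.2 in CPT and 409, 358 and 432 in CON. It stayed below untreated liver, with a log2 fold change of -3.44, and was above CPT by 1.92 ± 0.16 (SE), with adjusted p = 2.48e-05. Fabp1, the liver fatty acid binding protein, measured 717, 675 and 767 against 5735, 5492 and 6112 CPM, and the elongase gene Elovl5 and the peroxisomal thiolase gene Acaa1b fell, with log2 fold changes of -1.98 and -3.06. Cpt1a, the gate of mitochondrial fatty acid import, rose from 44.2 ± 3.76 to 161 ± 6.47 CPM. Of the 25 cholesterol biosynthesis genes, 16 were higher, 5 lower and 4 not called, with Sqle and Msmo1 higher by 2.25 and 1.61 on the log2 scale. Msmo1 was also above CPT (adjusted p = 0.0175).

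Of the 35 bile acid genes, 15 were lower, 9 higher and 11 not called (median -0.11, or 0.36 on log2(TPM + 1)). Cyp7a1, the rate-limiting enzyme of bile acid synthesis, measured 17.98, 12.7 and 18.1 against 13.8, 14.6 and 12.2 CPM and was not called (adjusted p = 0.34). It was called higher by limma on log2(TPM + 1) (0.69, adjusted p = 0.0135) and log2(TPM + 0.1) (0.90, adjusted p = 0.0141). Without a filter on low counts edgeR called it higher too (0.35, adjusted p = 0.0206). Abcb11, the canalicular bile salt export pump, fell from 279, 309.9 and 289.6 CPM in CON_1 to CON_3 to 71.8, 75.2 and 84.3 CPM in AT3_1 to AT3_3 (log2 fold change -1.93 ± 0.11 (SE), adjusted p = 6.30e-10). Slc10a1, the uptake carrier of the sinusoidal side, rose by 0.56 ± 0.12 (SE) on the log2 scale. Nr0b2, the repressor SHP that bile acids induce through FXR, measured 5.45, 5.86 and 8.27 against 61.4, 72.97 and 55.6 CPM (log2 fold change -3.28 ± 0.15 (SE)), and Hsd3b7, of bile acid ring modification, fell, with a log2 fold change of -1.85. Cyp39a1, an oxysterol hydroxylase, went far the other way: it measured 54.8, 53.3 and 52.01 CPM in AT3, 26.3, 22.5 and 36.4 in CPT and 1.69, 1.18 and 0.957 in CON, with adjusted p = 0.00308 between AT3 and CPT.

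Of the 49 tested genes that break down amino acids or make urea, 34 were higher, 12 lower and 3 not called (median 0.75, or 1.34 on log2(TPM + 1)). Of the 27 gluconeogenesis and insulin response genes 12 were higher, 11 lower and 4 not called, against 13 higher and 3 lower on log2(TPM + 1). Mat1a, the methionine adenosyltransferase of adult liver, measured 7617, 7232 and 7765 against 923, 1057 and 797 CPM (log2 fold change 3.03 ± 0.13 (SE)). Cps1, the entry enzyme of the urea cycle, measured 2466, 2313 and 2311 CPM in AT3, 1413, 1514 and 1885 in CPT and 340.1, 387 and 312 in CON. Together with the ornithine carrier gene Slc25a15 and the tyrosine transaminase gene Tat, it was higher in AT3 than in CPT (adjusted p = 0.0175, 0.0399 and 0.0208). Fbp1, a gluconeogenic phosphatase, rose from 87.3 ± 13.01 to 836 ± 26.4 CPM. Of the 20 pericentral genes that depend on Wnt signals, 13 were lower, 3 higher and 4 not called (median -0.86). On log2(TPM + 1) 7 of them were lower and 5 higher, with a median of -0.16. Nkd1, a Wnt feedback gene, measured 0.656, 0.909 and 0.788 against 8.71, 6.67 and 8.67 CPM. Oat, the ornithine transaminase, was higher at 576, 595 and 642 against 293, 264 and 285 CPM. Of the 25 tested hepatocyte transcription factors, 12 were lower, 10 higher and 3 not called (median -0.27, or 0.34 on log2(TPM + 1)), with Foxa1 lower and Foxa3 higher (log2 fold changes of -2.26 and 1.62).

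All 21 tight junction and barrier genes were called by edgeR, 13 lower and 8 higher, with a median of -0.41, or 0.18 on log2(TPM + 1). On that scale limma called 9 higher and 6 lower and the others not. Cldn1, a claudin of the canalicular seal, measured 22.5, 23.6 and 20.7 CPM in AT3 against 85.5, 89.3 and 104.9 CPM in CON (log2 fold change -2.06 ± 0.12 (SE)). Cldn3 and the scaffold gene Tjp3 fell, with log2 fold changes of -1.93 and -3.13. Tjp1, the scaffold ZO-1, rose by 0.45 ± 0.14 (SE). Ocln, occludin, had a log2 fold change of -0.41 ± 0.14 (SE) and adjusted p = 0.0176. That call was lost without CON_1 (0.0513), AT3_1 (0.0987) or AT3_3 (0.0579), and on log2(TPM + 1) the direction turned, at 0.45.

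Gene span moved with the direction of change. Of the 216 tested protein-coding genes that span over 300 kb, 67.1% were lower and 11.6% higher in AT3, with a median log2 fold change of -1.23. Of the 2921 that span under 10 kb, 29.6% were lower and 38.4% higher, with a median of 0.11. Of the 33 tested members of a fixed list of very long genes, 25 were lower, 4 higher and 4 not called, and on log2(TPM + 1) the median moved from -1.24 to -0.09. Magi1, a junction scaffold gene, measured 2.72, 2.63 and 3.08 CPM in AT3 against 14.6, 14.4 and 12.6 CPM in CON (log2 fold change -2.30). Nrg4, a neuregulin on the same list, was far higher, at 34.9, 33.8 and 34.2 against 1.41, 1.81 and 1.46 CPM (4.44), so not every long gene was lower. Median log2 fold changes of AT3 against CPT lay between -0.05 and 0.09 over the 5 span classes.

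**Figure D3:**
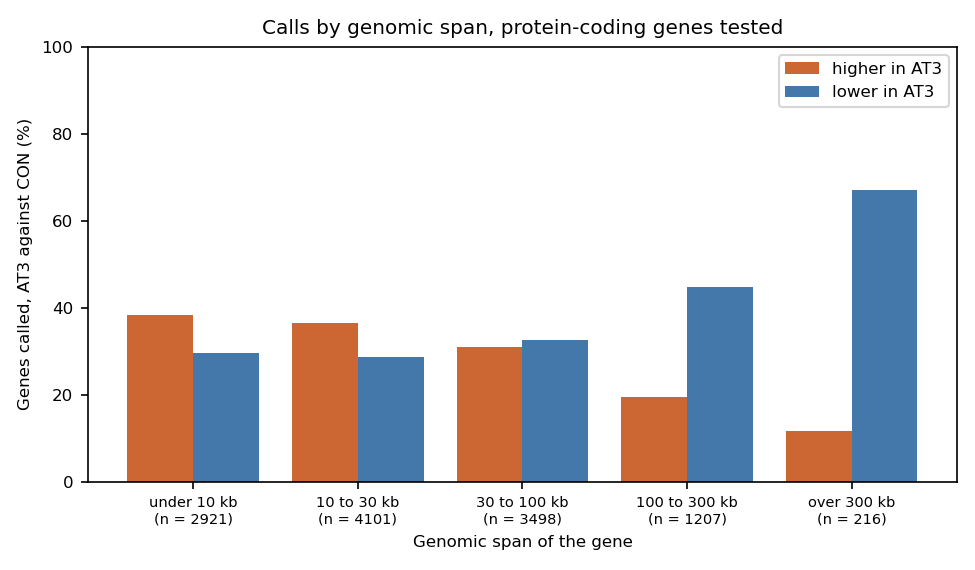
Share of tested protein-coding genes called higher (orange) and lower (blue) in AT3 against CON, in percent, by the genomic span of the gene in 5 classes, with the number of genes under each class. The lower share is 29.6% under 10 kb and 67.1% over 300 kb, and the higher share runs from 38.4% to 11.6%.

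Genes that left the untreated level in AT3 only were few. They were defined as called in AT3 against CON, not called in CPT against CON, and called in AT3 against CPT in the same direction, the last being the test of the difference. By this rule 131 of 13686 tested genes (0.957%) differed in AT3 only, 66 higher (0.482%) and 65 lower (0.475%), out of 1357 (9.92%) called in AT3 and not in CPT, 604 higher (4.41%) and 753 lower (5.5%). The number depended on single libraries: it was 310 without CPT_3, 67 without CPT_1, 58 without CPT_2, 43 without AT3_1, 37 without AT3_2 and 48 without AT3_3, and 9 on log2(TPM + 1). Of the members described below, Adgrf1 and Ccdc152 alone stayed in the class on log2(TPM + 1). Without a filter on low counts Cyp2b10, Cyp4a32, Fgf21, Nfil3, Tns1, Serpina1e, Dbp, Ugt1a2 and Ccdc152 left it. Since the rule uses these 3 comparisons, their values for the genes below describe the class. The genes below were also picked for having no overlap of AT3 and CON libraries, so that separation was fixed by the choice.

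Cyp2b10, a classic target of the nuclear receptor CAR, led those higher in AT3 only: it measured 23.3, 18.99 and 20.8 CPM in AT3_1 to AT3_3, 1.74, 2.39 and 0.507 CPM in CON_1 to CON_3 and 1.91, 1.81 and 5.92 CPM in CPT_1 to CPT_3. The AT3 libraries lay above all others, by 3.69 ± 0.39 (SE) on the log2 scale against CON and 2.74 ± 0.34 (SE) against CPT. It left the class without CON_2, CPT_1 or CPT_2, and CPT_3 was the highest CPT library: without it the log2 fold change of CPT against CON was 0.20 in place of 0.95. Cyp4a32, a fatty acid omega-hydroxylase whose family shares sequence, measured 18.3, 16.7 and 15.4 CPM in AT3, 7.17, 9.65 and 11.3 in CPT and 7.19, 7.03 and 7.99 in CON, and left the class without CPT_1. Hacl1, a peroxisomal lyase of fatty acid alpha-oxidation, measured 77.04, 74.6 and 77.4 CPM in AT3, 33.9, 47.8 and 40.7 in CPT and 39.1, 36.6 and 37.7 in CON. Its log2 fold change was 1.01 ± 0.11 (SE) against CON and 0.90 ± 0.11 (SE) against CPT, with adjusted p = 1.10e-06 and 5.97e-04, and it left the class without CPT_1. Adgrf1, an adhesion receptor gene, measured 2.20, 3.70 and 3.55 CPM in AT3, 1.13, 1.15 and 1.08 in CPT and 1.46, 1.33 and 1.07 in CON. It stayed in the class when any one library was left out, and every AT3 library lay above every other library.

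Fgf21, a hormone of fasting and stress, measured 12.2, 10.4 and 11.5 CPM in AT3 against 6.29, 4.004 and 5.85 CPM in CON (6.04, 5.11 and 8.53 in CPT), and left the class without CPT_1, CPT_2 or any AT3 library. Nfil3, a repressor that opposes the clock output factor DBP, measured 31.4, 32.9 and 30.9 CPM in AT3 against 16.2, 16.9 and 11.9 in CON (15.4, 18.8 and 23.4 in CPT), and held in 6 of 16 settings. It was lost without CON_2, CPT_1, CPT_2 or AT3_2, with DESeq2 or its size factors, without a filter, on both TPM scales and without the mitochondrial and most abundant genes. Tns1, a focal adhesion scaffold, measured 86.9, 78.9 and 77.3 CPM in AT3 against 42.2, 39.5 and 41.3 in CON (50.7, 36.3 and 57.5 in CPT), with a loss without CPT_2. For each of these 3 genes every AT3 library lay above every other library. Serpina1e measured 19.3, 14.7 and 19.8 CPM in AT3 against 6.18, 7.50 and 4.84 in CON (6.78, 6.35 and 12.5 in CPT, CPT_3 the highest). It belongs to the antitrypsin cluster, whose copies share reads, and left the class without CPT_1, CPT_2, AT3_1 or AT3_3. Cyp2b10 lies on chromosome 7 from 25897620 to 25926624, Hacl1 on chromosome 14 from 31598730 to 31641286, Fgf21 on chromosome 7 from 45613886 to 45615490 and Nfil3 on chromosome 13 from 52967209 to 52981073 in GRCm38, all protein-coding.

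Among those lower in AT3 only, the clock output activator gene Dbp measured 4.46, 4.54 and 5.34 CPM in AT3, 26.5, 9.97 and 8.84 in CON and 23.5, 18.9 and 16.6 in CPT. AT3 was below both other groups without overlap, but CON_1 was far above the other CON libraries: without it the log2 fold change against CON was -0.97 in place of -1.65, and CPT was then called above CON (1.07, adjusted p = 7.39e-05), which took the gene out of the class. Neat1, the nuclear noncoding RNA that scaffolds paraspeckles, measured 49.2, 54.1 and 45.9 CPM in AT3, 94.98, 107 and 104 in CON and 107, 149.5 and 74.8 in CPT. Its log2 fold change was -1.04 ± 0.18 (SE) against CON and -1.15 ± 0.18 (SE) against CPT, and it left the class without CPT_3. It was not called against CON on log2(TPM + 1) (-0.10, adjusted p = 0.725). Derl3, of ER-associated degradation, measured 0.492, 0.658 and 0.537 CPM in AT3 against 2.14, 1.73 and 1.75 in CON and 1.20, 2.15 and 1.19 in CPT, while 22 of 26 genes of its list were higher; it left the class without CPT_2 or any AT3 library. Coro1a, an actin regulator of leukocytes, measured 2.53, 1.60 and 2.11 CPM in AT3 against 4.61, 4.67 and 4.45 in CON and 3.004, 4.45 and 3.65 in CPT. It left the class without CPT_2, AT3_2 or AT3_3 and with a replicate block (edgeR adjusted p = 0.0577 between AT3 and CPT).

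A further 2 genes of the class are uncertain. Ugt1a2, a glucuronosyltransferase that shares exons with the other Ugt1a genes, had 0 counts in all AT3 libraries and in CPT_3, against 21.1, 22.3 and 15.9 CPM in CON and 24.6 and 12.5 CPM in CPT_1 and CPT_2. Set against 3 counts over the AT3 group it was at least 605-fold lower than in CON. Ccdc152 measured 209.8, 161 and 162 CPM in AT3, 1037, 765 and 375 in CPT and 845, 1049 and 969 in CON. It left the class without CPT_1. It overlaps Selenop on the opposite strand, whose mean level was 3656 CPM in AT3, 3158 in CPT and 413 in CON (chosen after its values were seen), and since the strand used in counting is not given, reads of both genes cannot be told apart.

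**Figure D4:**
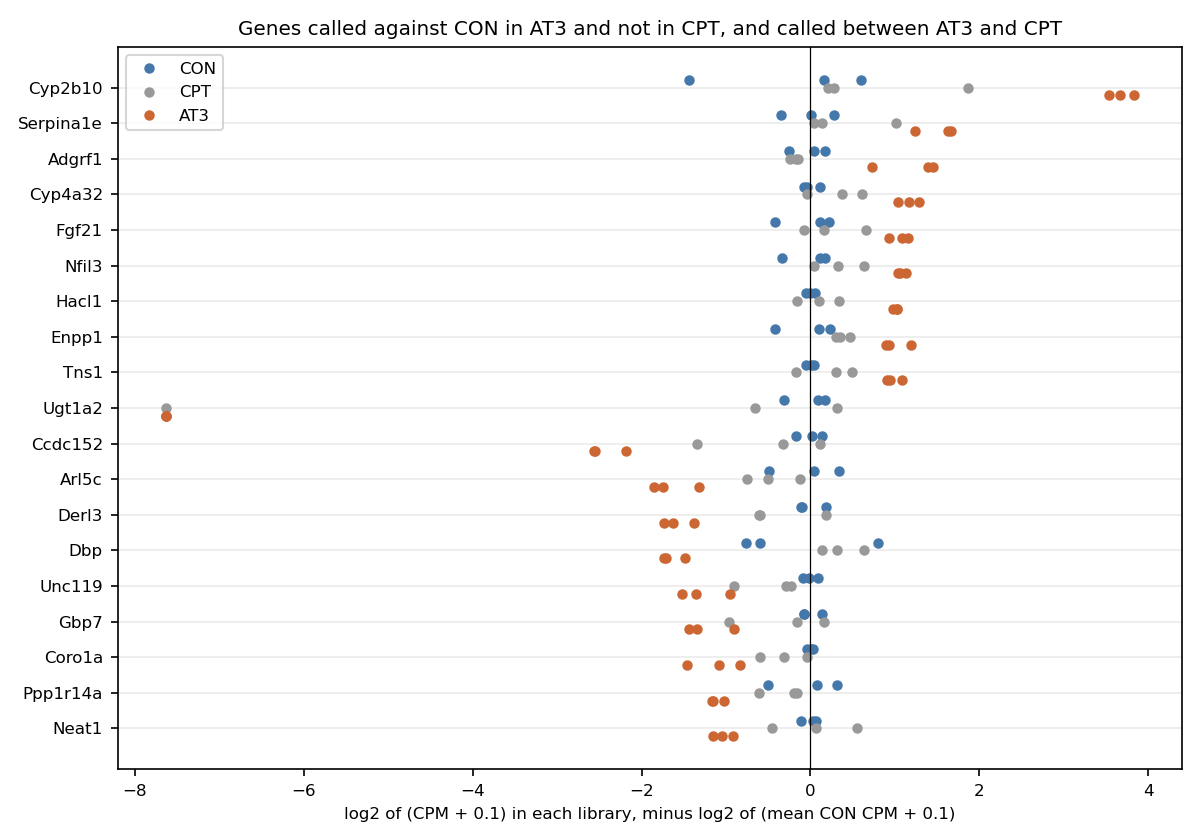
Of the 20 largest changes called in AT3 only, 10 higher and 10 lower, 19 are drawn as log2(CPM + 0.1) of each library minus log2 of the CON mean CPM + 0.1 (CON blue, CPT grey, AT3 orange). AT3 points lie to the right for the first 9 genes and to the left for the others, with Cyp2b10 the farthest right. Ugt1a2 lies at the far left in AT3 and CPT_3, where its count is 0.

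Genes called in AT3 and CPT in the same direction were farther from CON in AT3 for 283 genes (2.07%), 159 higher (1.16%) and 124 lower (0.906%), by a call between AT3 and CPT. By the same test 111 (0.811%) were nearer, 53 higher (0.387%) and 58 lower (0.424%). Without a single library the first number was 674 (CPT_3), 179 (CON_1), 132 (CPT_1), 82 (CPT_2), 71 (AT3_1), 67 (AT3_2) and 103 (AT3_3), and the second 42 (CPT_2), 34 (AT3_1), 41 (AT3_2) and 37 (AT3_3). Sult1e1, the estrogen sulfotransferase, was among the farthest in the direction of higher levels: it measured 11.3, 12.8 and 13.8 CPM in AT3, 3.89, 2.30 and 3.08 in CPT and 0.225, 0.393 and 0.0563 in CON. Its log2 fold changes were 5.67 ± 0.31 (SE) against CON (6.45 without CON_2) and 2.04 ± 0.20 (SE) against CPT. Got1, the cytosolic aspartate aminotransferase, measured 727, 592 and 677 CPM in AT3, 242, 156 and 374 in CPT and 20.3, 23.5 and 17.6 in CON. Atp1b1, a subunit of the sodium pump, measured 93.2, 80.6 and 84.03 CPM in AT3, 35.2, 22.9 and 40.3 in CPT and 18.8, 20.2 and 16.7 in CON. In all 3 genes AT3 exceeded both other groups without overlap, but no overlap with CON was a condition for describing them. Each stayed in the class when any one library was left out. Nr4a1, an immediate early nuclear receptor, measured 14.3, 10.6 and 11.5 CPM in AT3, 3.82, 1.74 and 6.61 in CPT and 0.562, 0.157 and 0.507 in CON, and left the class without AT3_1 and with DESeq2. Palm, a membrane-bound phosphoprotein gene, was among the farthest below, at 0.558, 0.595 and 0.681 CPM in AT3, 1.48, 1.68 and 1.54 in CPT and 2.75, 3.42 and 2.70 in CON, with losses without AT3_1 or AT3_2 and on log2(TPM + 1). Serpina1d, of the antitrypsin cluster, measured 1399.9, 1304 and 1448 CPM in AT3, 348, 239 and 638 in CPT and 266, 241 and 279 in CON. Its reads can be shared within the cluster, and it left the class without CON_1, CON_2 or CPT_3 and with DESeq2.

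A group of 98 genes (0.716%) met the reverse rule: called in CPT against CON, not called in AT3 against CON, and called between AT3 and CPT in the opposite direction. In CPT, 53 of them were higher (0.387%) and 45 lower (0.329%) than CON, out of 870 (6.36%) called in CPT and not in AT3, 401 higher (2.93%) and 469 lower (3.43%); a missing call does not show that AT3 equalled CON. Without a single library the number was 54 (CPT_1), 38 (CPT_2), 27 (AT3_1), 25 (AT3_2) and 36 (AT3_3), and 142 without CPT_3. On log2(TPM + 1) it was 7, and of the members described below Tifa alone stayed. These members were picked for having no overlap of AT3 and CPT libraries, so that separation was fixed by the choice. Tifa, an adaptor that carries signals to TRAF6, measured 3.68, 6.97 and 3.19 CPM in CPT, 0.820, 1.03 and 1.29 in AT3 and 1.29, 1.06 and 1.35 in CON. All CPT libraries lay above all others, the log2 fold change of AT3 was -0.23 ± 0.35 (SE) against CON and -2.15 ± 0.30 (SE) against CPT, and the gene stayed in the class under all 16 settings tried. Cyp2c38, an arachidonic acid epoxygenase, measured 84.6, 99.6 and 81.7 CPM in CPT, 44.03, 46.5 and 57.9 in AT3 and 46.4, 54.6 and 40.4 in CON, and stayed in the class when any one library was left out. Isg20, an interferon-induced exonuclease, measured 3.25, 2.96 and 3.38 CPM in CPT, 1.71, 1.38 and 1.40 in AT3 and 1.57, 1.45 and 1.24 in CON, with losses without AT3_2 or AT3_3.

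Among genes called lower in CPT and not called in AT3, Lpl, the lipoprotein lipase, measured 2.79, 2.74 and 3.73 CPM in CPT, 12.7, 9.25 and 10.4 in AT3 and 12.5, 12.1 and 12.4 in CON. AT3 overlapped CON and not CPT, with log2 fold changes of -0.19 ± 0.14 (SE) against CON, which turned to 0.34 with adjusted p = 0.0348 on log2(TPM + 1) and to 0.47 with adjusted p = 0.0561 on log2(TPM + 0.1), and 1.81 ± 0.15 (SE) against CPT. Arntl, which encodes the core clock activator BMAL1, measured 1.91, 1.43 and 2.61 CPM in CPT, 6.10, 6.39 and 7.20 in AT3 and 4.89, 7.22 and 4.95 in CON (adjusted p = 0.405 against CON and 5.97e-04 against CPT). Its list was mixed by edgeR: of the 23 circadian clock genes, 10 were higher, 6 lower and 7 not called in AT3 against CON. On log2(TPM + 1) 17 of them were higher and 2 lower. Npas2, a partner of BMAL1, stayed low at 0.0984, 0.0627 and 0.0358 CPM in AT3 against 5.06, 4.99 and 4.50 CPM in CON (0.0707, 0.0623 and 0.0384 in CPT). The repressor gene Nr1d1 measured 1.90, 2.23 and 2.54 CPM in AT3, 5.19, 3.77 and 5.77 in CPT and 23.9, 14.1 and 19.4 in CON, and Per1 rose by 2.08 on the log2 scale. No label gives the hour of sampling, so its part in these clock values was not tested. Lpl and Arntl stayed in the class when any one library was left out. Pdk4, the kinase that restrains pyruvate dehydrogenase, measured 1.31, 1.99 and 2.15 CPM in CPT, 4.56, 4.76 and 2.97 in AT3 and 4.66, 6.08 and 5.24 in CON, with losses without AT3_1 or AT3_2. Hes1, a Notch target, measured 1.45, 1.56 and 1.499 CPM in CPT, 3.08, 3.42 and 2.51 in AT3 and 3.26, 3.02 and 2.36 in CON, and left the class without CPT_1, CPT_2, AT3_1 or AT3_2. Vsig4, a Kupffer cell complement receptor, measured 0.565, 0.592 and 0.461 CPM in CPT, 1.25, 1.54 and 1.07 in AT3 and 1.57, 2.04 and 2.48 in CON. Its adjusted p of 0.0515 against CON lay next to the threshold, and it left the class with a replicate block and without CON_1 or any CPT or AT3 library.

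**Figure D5:**
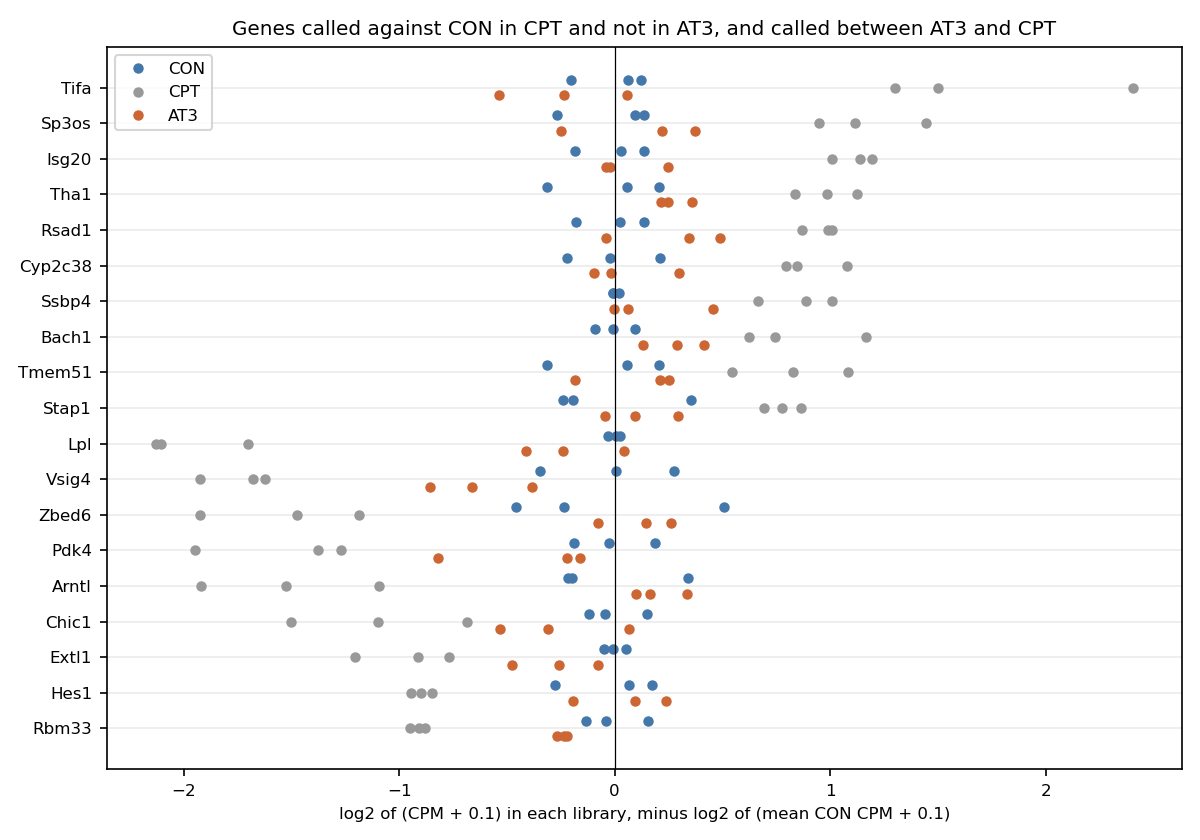
Of the 20 largest CPT changes among genes that met the reverse rule and had no overlap of AT3 and CPT libraries, 19 are drawn. Values are log2(CPM + 0.1) of each library minus log2 of the CON mean CPM + 0.1. The reverse rule requires a call between AT3 and CPT, so the placement of the points describes the class. CPT points (grey) lie to the right for the first 10 genes and to the left for the other 9, while AT3 points (orange) lie closer to the CON points (blue) around 0.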

How the data were processed

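Liver RNA sequencing of 3 CON, 3 CPT and 3 AT3 libraries was compared. The authors deposited estimated counts and TPM per gene, per the file headers; between 7.96% and 9.55% of the estimated counts in a library were not whole, and they were rounded. Another 3 columns of group values in the count table were not used. The deposited TPM were used only as an alternative scale, without TMM scaling. TMM factors of the counts were 0.726 to 0.963 in CON and 1.05 to 1.13 in AT3, and their part in the difference between the scales was not tested. Builds that appear in the submitters' processing notes are GRCm38, GRCm39 and mm10, without their roles; no source used here states the aligner, the counter or the use of strand. Gene positions come from GENCODE M21 (GRCm38), which held 98.1% of the tested identifiers, and promoters from RefSeq (GRCm38.p6), which matched 151 of 196 named genes.

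Genes were filtered with filterByExpr by group, scaled by TMM and fitted over all 9 libraries with edgeR 4.0.16 (quasi-likelihood, 1 term a group, R 4.3.3), which pools the spread over groups. Benjamini-Hochberg adjustment ran over 13686 genes. Total counts lay between 21485021 and 28480479, so 3 counts were 0.105 to 0.140 CPM. On simulated data for AT3 against CON (13198 genes) the script recovered 44.8% of 67 genes changed 1.5-fold, 77.6% of 67 at 2-fold and 97.0% of 66 at 4-fold. It called 5 unchanged genes. All groups were drawn from the CON means, so far fewer genes differed than the 64.4% called in the data. AT3 against CPT was not simulated, so these rates do not cover the classes.

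Named genes come from a rule. Among called genes with a mean of at least 1 CPM and no overlap between AT3 and CON, it takes the 8 largest rises and falls. It also takes up to 10 per direction in AT3 only and the 5 per direction farther from CON in AT3. Under the reverse rule it takes up to 10 per direction with that mean and no overlap between AT3 and CPT. The 3 genes of each list lowest in p and a set of fixed genes complete it. A few genes that the rule gives are not reported here. The comparison, the classes and the 49 lists were chosen with earlier results of these data known. Alternatives were DESeq2 1.42.0, its size factors, no filter, limma 3.58.1 on log2(TPM + 1) and log2(TPM + 0.1), 6 libraries only, no mitochondrial or most abundant genes, a minimum fold, a replicate block and leaving out each library.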

Additional observations from a re-analysis of the deposited data

How the results depend on the processing

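Over 17 alternatives, 4492 of 4863 values of single genes stayed on their side of the threshold with no called value changing sign, 275 lost the call, 91 gained one, and 5 changed sign with a call under either setting. Among the 4492, 47 that were called under neither setting changed sign. Without a filter on low counts, AT3 only held 215 genes, those farther from CON in AT3 582 and those nearer 185. On log2(TPM + 1), limma called 7017 genes higher and 1698 lower in AT3 than CON, with 9 in AT3 only, 7 that met the reverse rule (called in CPT, not in AT3, and called between them in the opposite direction), 20 farther and 7 nearer. On log2(TPM + 0.1) the same numbers were 7037, 1679, 7, 8, 10 and 6; the cause was not tested, and 3 and 2 of the AT3-only genes were shared with the 131. The 5 sign changes with a call were Rela (0.55 and 0.65) and Ocln (0.45 and 0.71) on log2(TPM + 1) and log2(TPM + 0.1), and Lpl on the first (0.34); on the second Lpl was at 0.47 and not called. A minimum absolute log2 fold change of 1 left 4428 calls, by construction fewer.

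Leaving out each library gave 37 to 310 genes in AT3 only, 25 to 142 under the reverse rule, 67 to 674 farther and 34 to 142 nearer, with the highest numbers without CPT_3. Genes called in both groups in the same direction numbered 6956 to 7520. DESeq2 called 4274 genes higher and 4237 lower, with 153 in AT3 only, 118 of them shared. Deviations of same-numbered AT3 and CON libraries had correlations of -0.01, 0.00 and 0.04, beside -0.027 to 0.025 for the other pairs. With 3 same-numbered pairs this cannot exclude a shared batch or order. With a replicate block, 8648 genes were called, with 91 in AT3 only and 72 under the reverse rule, against 131 and 98 without it. At these depths 3 counts are at most 0.140 CPM, and genes below the filter were not compared.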
